A study of Mus musculus with 4 samples.

Results

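The genes described here are 47 DNA repair genes of 5 pathways, namely 10 of the Fanconi anemia pathway, 11 of homologous recombination, 5 of mismatch repair, 10 of nucleotide excision repair and 11 of base excision repair. They were chosen by gene symbol, without the checkpoint kinases, from the 12417 genes kept in the expression tables of GRK6 knockout (GRK6-/-) and wild-type (WT) mice. RNA was measured in 4 libraries, 1 for each combination of genotype and population. The labels name the populations hematopoietic stem cells (HSC), sorted from bone marrow as Lin-c-kit+sca-1+, and common lymphoid progenitors (CLP), sorted as Lin-c-kit+sca-1+Il-7Ra+. All mice were of the C57BL/6 strain and no treatment or age is given in the labels. Per the study, the knockout removes exons 3 to 9, which the transcripts of GRK6 share. A library is a pool of amplified cDNA from 13 to 15 cells picked out of 3 to 4 mice. The HSC gate, which uses no further stem cell marker, also holds multipotent progenitors. With 1 library per group, the spread between mice could not be measured, and each difference below is a difference between a pair of pools.

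Cells divide the repair of DNA between pathways by the kind of lesion. The Fanconi anemia proteins act on crosslinks between the strands: a core complex with the ubiquitin ligase FANCL marks the FANCD2-FANCI pair, and homologous recombination then restores the broken strand from the sister chromatid. Mismatch repair corrects replication errors, nucleotide excision repair cuts out bulky lesions, and base excision repair removes single damaged bases, among them those oxidized by reactive oxygen species. Inherited loss of Fanconi genes is known for bone marrow failure. The study asked whether GRK6 takes part in the response of stem and progenitor cells to oxidative stress and DNA damage.

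The values are FPKM as deposited by the authors, that is, fragments scaled to transcript length and to the mapped fragments of the library. Where a library lists no row for a gene, the value was taken as 0; the reason for a missing row is not stated. From steps in the lowest values, the libraries were estimated to hold between 2790000 and 4350000 fragments, so that 1 fragment in a transcript of 2 kb gave between 0.115 and 0.179 FPKM. The study states a larger number of sequenced reads per lineage, and the reason for the gap was not tested. Grk6 itself had 42.7 FPKM in WT and 89.4 in the library labelled knockout among HSC, and 26.9 and 57.6 FPKM among CLP. Grk6 was thus higher where the label says knockout. A value per gene also counts the exons outside the deletion, so it does not check the genotype. GRK6-/- HSC and GRK6-/- CLP therefore stand below for the libraries so labelled, and every direction rests on these labels. Where values are given in pairs, WT comes before GRK6-/-, and HSC comes before CLP. Il7r, which defines the CLP gate, had 120.1 and 75.1 FPKM in WT CLP and GRK6-/- CLP, no row in WT HSC and 1.08 FPKM in GRK6-/- HSC. Of 9 erythroid markers 6 were among the genes kept, and their summed level was 38.1 (WT) and 746 FPKM (GRK6-/-) in HSC, and 19.8 (WT) and 17530 FPKM (GRK6-/-) in CLP. The 8 myeloid markers summed to between 7742 and 17840 FPKM in the 4 libraries, Ltf having a row in WT CLP alone. The summed level of 5 megakaryocyte markers was 149.6 (WT) and 10.9 FPKM (GRK6-/-) in HSC, and 13.5 (WT) and 117 FPKM (GRK6-/-) in CLP. The part that other cells had in the repair gene values was not tested, and fewer cells of a type and less RNA per cell cannot be told apart in a pool.

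Some letter motifs, which the choice of genes did not use, differed in frequency between promoters of the repair genes and all promoters. In the RefSeq table of windows from 250 bases before to 50 bases after a start site (build GRCm38.p6), 39 of the 47 genes were matched. Those not matched were Fancd2, Xrcc2, Wrn, Exo1, Ercc3, Xpc, Ddb2 and Polb. An E2F-type motif, searched on both strands as TTTCCCGC, TTTGGCGC, TTTCGCGC or TTTGCCGC, was in the windows of Bard1, Brca2, Fancg, Msh3 and Msh6, or 5 of 42 windows of the matched genes (11.9%), and in 2.26% of all 32851 windows. The GC box GGGCGG was in 69% of the repair gene windows and 35.7% of all windows, and CCAAT in 64.3% and 37.4%. The ETS-type motif CCGGAAG was in 16.7% of the repair gene windows and 8.86% of all windows. The TATA box letters TATAAA were in 4.76%, those of Brca2 and Neil1, and in 13.6% of all windows. These are matches of letters on both strands, counted without regard to overlap, and not shown binding sites. The set of all windows was not matched to the repair genes for base composition or gene class. The windows below give the 250 bases before the start, 5′ to 3′ on the strand of the gene. The first 3 are shown for their E2F-type match, in capitals, and Fanca and Parp2 because they differed 2-fold in opposite directions in the HSC and CLP comparisons, with CCAAT and the GC box in capitals, respectively.
Brca2 (chr5:150522371-150522620, plus strand): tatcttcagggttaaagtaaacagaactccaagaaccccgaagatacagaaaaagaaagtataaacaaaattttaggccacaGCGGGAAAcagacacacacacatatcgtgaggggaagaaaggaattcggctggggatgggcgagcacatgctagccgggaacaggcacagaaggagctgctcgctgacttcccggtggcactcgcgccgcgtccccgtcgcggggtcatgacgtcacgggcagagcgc
Bard1 (chr1:71102973-71103222, minus strand): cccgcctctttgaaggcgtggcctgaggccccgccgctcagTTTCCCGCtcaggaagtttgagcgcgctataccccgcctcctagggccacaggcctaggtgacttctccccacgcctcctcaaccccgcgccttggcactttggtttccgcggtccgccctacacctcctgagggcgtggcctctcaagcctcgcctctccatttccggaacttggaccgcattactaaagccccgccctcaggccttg
Fancg (chr4:43010302-43010551, minus strand): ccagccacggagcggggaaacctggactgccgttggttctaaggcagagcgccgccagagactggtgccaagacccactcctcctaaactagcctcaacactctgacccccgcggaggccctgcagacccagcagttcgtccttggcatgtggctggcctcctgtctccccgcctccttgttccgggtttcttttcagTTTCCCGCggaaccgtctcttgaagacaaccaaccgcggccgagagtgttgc
Fanca (chr8:123318577-123318826, minus strand): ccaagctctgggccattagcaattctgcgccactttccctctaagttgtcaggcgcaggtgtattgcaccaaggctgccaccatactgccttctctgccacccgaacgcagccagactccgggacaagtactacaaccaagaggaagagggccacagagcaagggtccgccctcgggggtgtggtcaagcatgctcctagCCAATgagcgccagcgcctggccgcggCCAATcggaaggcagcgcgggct
Parp2 (chr14:50807666-50807915, plus strand): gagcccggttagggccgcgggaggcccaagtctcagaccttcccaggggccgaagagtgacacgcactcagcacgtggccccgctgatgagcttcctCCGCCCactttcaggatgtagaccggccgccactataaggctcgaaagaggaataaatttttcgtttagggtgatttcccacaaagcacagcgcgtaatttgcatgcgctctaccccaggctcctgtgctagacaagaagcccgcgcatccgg

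The genes with an E2F-type match did not share a pattern in the libraries. Fancg was higher in GRK6-/- than in WT in both populations, Brca2 and Msh3 passed 2-fold in CLP and not in HSC, and Bard1 and Msh6 passed it in neither. Bard1 had 7.18 (WT) and 3.23 FPKM (GRK6-/-) in HSC, and 3.40 (WT) and 3.49 FPKM (GRK6-/-) in CLP.

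Most repair genes were expressed at low to moderate levels, and base excision repair had the highest median FPKM of the 5 pathways. Over the 47 genes the median FPKM was 6.18 (WT) and 6.24 (GRK6-/-) in HSC, and 5.46 (WT) and 10.97 (GRK6-/-) in CLP. The medians over all genes with a row were 10.66, 9.25, 11.9 and 11.97 FPKM in the same order. Base excision repair had medians of 18.1, 16.6, 11.5 and 19.4 FPKM in this order, and nucleotide excision repair 10.3, 10.9, 10.9 and 13.7. The Fanconi genes had medians of 2.62, 5.62, 5.85 and 10.5 FPKM, homologous recombination 5.86, 4.05, 4.34 and 10.97, and mismatch repair 4.197, 2.41, 3.28 and 10.55. In each of the 5 pathways the median was highest in GRK6-/- CLP. Single genes ranged from Mlh3, at or under 0.130 FPKM in all 4 libraries, to Parp2, at 194 FPKM in WT HSC. The cDNA was primed at the poly(A) tail, and how fragments were spread along long transcripts is not in the files, so levels of different genes are less comparable than levels of the same gene.

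**Figure D1:**
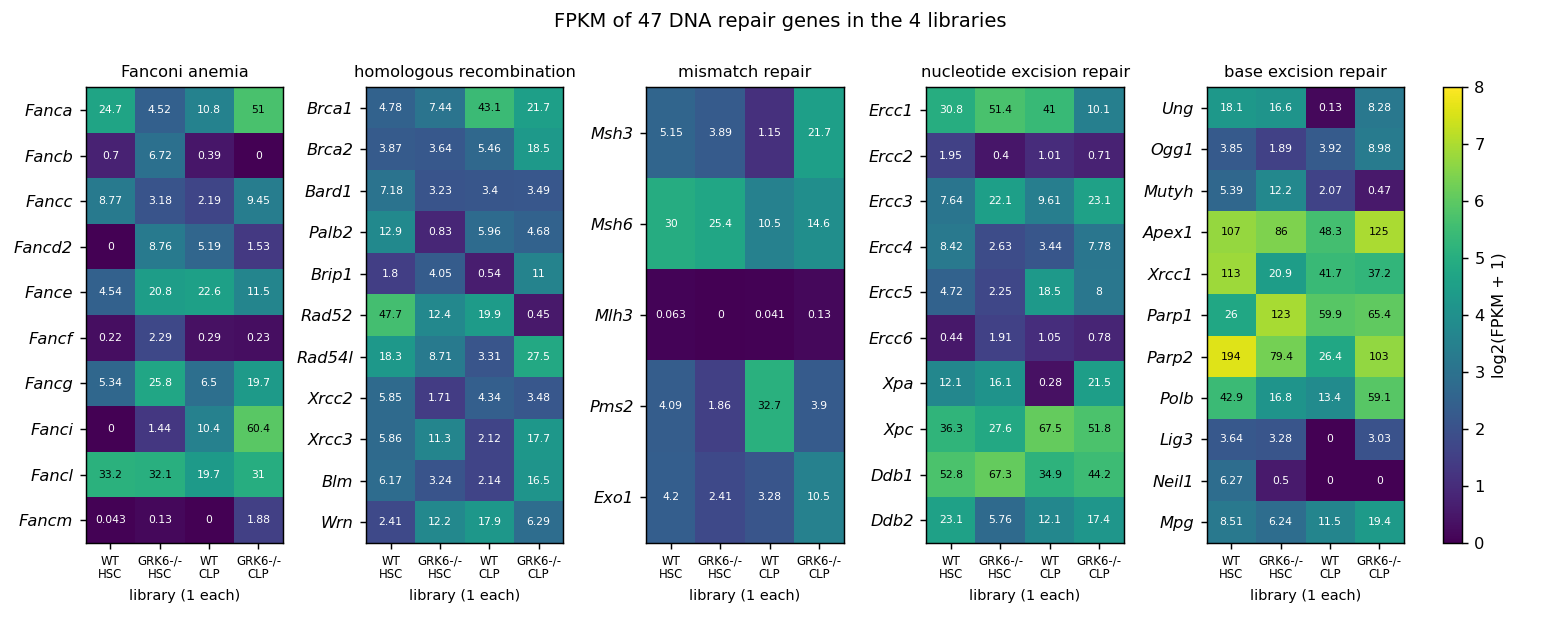
FPKM of the 47 repair genes (rows) in the 4 libraries (columns, 1 library each), by pathway. Color gives log2(FPKM + 1), numbers give FPKM, and 0 stands for no row; the rows of Apex1, Parp1, Parp2, Ddb1 and Xpc are bright in all libraries, while Fancf, Fancm and Mlh3 are dark in most.

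Rows were present for 45 (WT) and 46 (GRK6-/-) of the 47 genes in HSC, for 44 and 45 in CLP, and for 40 genes in all 4 libraries. Over the 8246 genes with a row in all libraries, the highest value was a median of 3.91 times the lowest. Among the 40 repair genes, not matched to those for level, it was 5.02 times. Fancl, at 33.2, 32.1, 19.7 and 31.0 FPKM, and Ddb1, at 52.8 and 67.3 FPKM in HSC of WT and GRK6-/-, and 34.9 and 44.2 in CLP, were the genes of this set that stayed within 2 times over the libraries. GRK6-/- CLP held the highest value for 15 of the 40 genes (37.5%; 26.7% of the 8246) and the lowest for 3 (7.5%; 28.6%). WT CLP held the lowest for 14 (35%; 27.7%), and GRK6-/- HSC for 15 (37.5%; 21.2%).

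In HSC, repair genes differed between GRK6-/- and WT in both directions. On the scale of log2(FPKM + 1), 23 of the 47 genes differed by 2-fold or more, 11 higher and 12 lower in GRK6-/- HSC. The same threshold was passed by 37.4% of the 11624 genes with a value in HSC, 19.3% higher and 18% lower. The share depends on the level, since 25.9% of genes with a mean under 1 FPKM passed, 47.7% of those with 1 to 10 FPKM over the 4 libraries and 35.3% of those with 10 to 100. Of the repair genes, 1 of 3, 11 of 21 and 10 of 22 passed in these ranges. The median log2 ratio of the repair genes was -0.23, beside 0.05 over all genes. Ercc6 (1.02) lay just inside the threshold and Rad54l (-0.99) just outside. The ratios of genes taken as 0 in a library, among them those of Fancd2 and Fanci in HSC and of Lig3 in CLP, depend on the added 1.

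In CLP, more repair genes were higher in GRK6-/- than lower. Of 46 genes with a value, 27 passed 2-fold, 20 higher and 7 lower in GRK6-/- CLP, where 50% of all 11191 genes passed, 26.6% higher and 23.4% lower. The median log2 ratio of the repair genes was 0.56, beside 0.05 over all genes. By pathway, 6 of 10 base excision genes were higher past 2-fold and 1 lower, 5 of 10 Fanconi genes higher and 1 lower, and 5 of 11 recombination genes higher and 2 lower. Mismatch repair had 2 of 5 higher and 1 lower, and nucleotide excision repair 2 of 10 higher and 2 lower. In the mean range under 1 FPKM 1 of 3 repair genes passed, against 33% of all genes. In that of 1 to 10 FPKM 13 of 20 repair genes passed, against 62.3% of all genes, and in that of 10 to 100 FPKM 12 of 22 passed, against 47.5%. Ogg1 (1.02) lay just inside the threshold and Ercc4 (0.98) just outside. Markers of other cells and stages differed between the same libraries. The erythroid markers summed to 17530 FPKM in GRK6-/- CLP and 19.8 in WT CLP. The 8 lymphoid progenitor markers had similar sums, 1245 FPKM in WT and 1354 in GRK6-/-, but 4 were higher past 2-fold in GRK6-/- CLP and 2 lower. The higher ones were Igll1 (2.20 and 226 FPKM), Vpreb1 (16.4 and 246), Cd79a (32.1 and 159.9) and Ebf1 (24.99 and 82.05), and the lower ones Rag1 (23.03 and 2.47) and Rag2 (94.5 FPKM and no row). Dntt (931 and 562) and Il7r were within 2-fold, and Dntt was also present in HSC, at 113.8 and 92.3 FPKM. The part of these differences in the repair gene values was not tested. The median depends on which genes are counted: over the 31 genes that have no exon overlap of at least 100 bp with a gene on the opposite strand it was 0.12, with 12 higher and 5 lower.

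Between the populations the direction differed by genotype. In WT, 27 of 47 genes passed 2-fold, 8 higher and 19 lower in CLP than in HSC, where 46.5% of all genes passed, 21.8% higher and 24.7% lower. Of genes with a mean under 1 FPKM 30% passed, and 0 of 3 repair genes did. Of those with 1 to 10 FPKM 58.2% passed and 12 of 21 repair genes, and of those with 10 to 100 FPKM 44.5% and 14 of 22. In GRK6-/-, 24 of 47 passed, 18 higher and 6 lower in CLP, where 45.6% of all genes passed, 22.3% higher and 23.4% lower. Of genes with a mean under 1 FPKM 28.9% passed, and 2 of 3 repair genes did, of those with 1 to 10 FPKM 57.4% and 13 of 21, and of those with 10 to 100 FPKM 44% and 9 of 22. The medians were -0.59 in WT and 0.53 in GRK6-/- on the log2 scale, beside -0.08 over all genes in both. These comparisons share their libraries with the comparisons of genotype, so the low WT CLP values and the high GRK6-/- CLP values enter both kinds of comparison. Whether the difference between the genotypes exceeds the spread between mice was not tested.

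**Figure D2:**
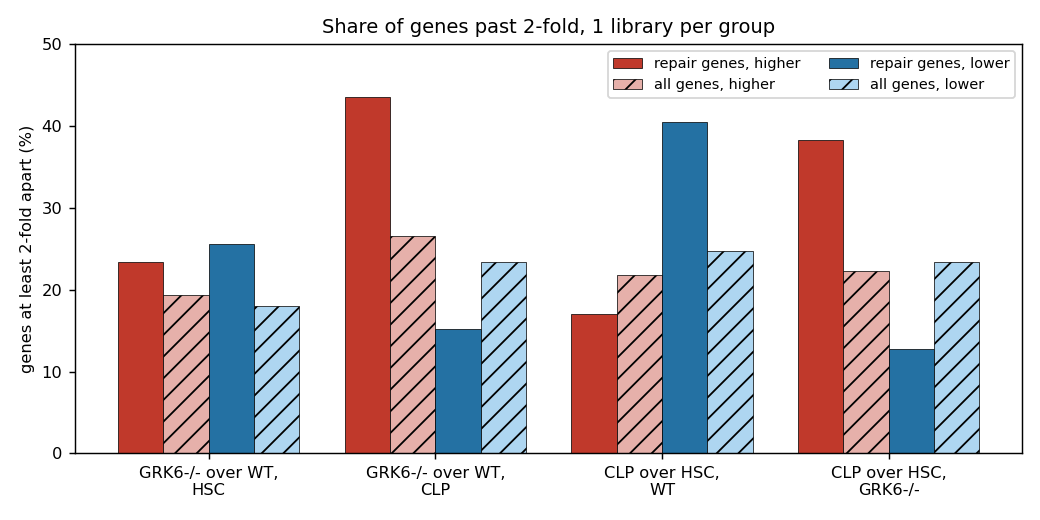
Share of genes (%, vertical axis from 0) at least 2-fold higher (red) or lower (blue) in each of the 4 comparisons, for the repair genes (plain bars) and all genes (hatched), with 1 library per group. In CLP the bar for repair genes higher in GRK6-/- (20 of 46) stands above that of all genes (26.6%), and in HSC the bars of the repair genes in both directions stand nearer to those of all genes.

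Both comparisons of genotype, which share no library, could be made for 46 genes. Of these 3 were higher past 2-fold in GRK6-/- in both populations (Fancg, Fanci and Ercc3), or 6.52%, beside 5.66% of all 10398 genes. Rad52 alone was lower in both (2.17%, beside 4.43%). Fanca, Fancc, Parp2 and Polb were lower in HSC and higher in CLP (8.7%, beside 5.69%), and Fancd2, Wrn and Mutyh higher in HSC and lower in CLP (6.52%, beside 5.07%). A further 11 genes passed in HSC alone (23.9%, beside 16.1%) and 16 in CLP alone (34.8%, beside 28.3%). The 8 that passed in neither were Fancl, Brca1, Bard1, Msh6, Mlh3, Xpc, Ddb1 and Mpg. These are 17.4% of the repair genes, beside 34.7% of all genes. The genes compared were not matched for level, on which the share past 2-fold depends.

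**Figure D3:**
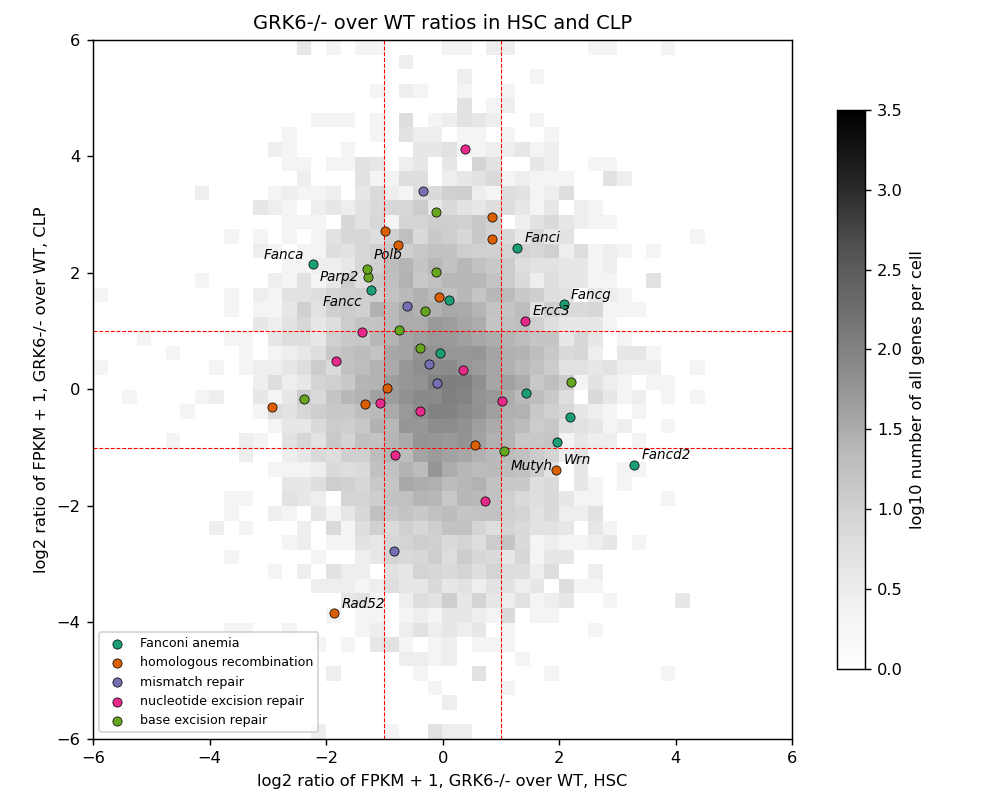
Log2 ratio of FPKM + 1 of GRK6-/- over WT in HSC (horizontal) and CLP (vertical) for 46 repair genes (points, colored by pathway) over the density of all genes (grey, log10 number per square, values past 6 drawn at the edge). Dashed lines mark 2-fold; the 11 genes past it in both populations are named and lie in all 4 corners.

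In the Fanconi pathway the core complex genes did not share a direction. Fanca (Entrez Gene 14087, at 125791994 to 125842476 on the minus strand of chromosome 8, build mm9) had 24.7 FPKM in WT and 4.52 in GRK6-/- HSC, but 10.8 and 51.0 in the CLP of these genotypes. Its log2 ratio of GRK6-/- over WT was -2.22 in HSC and 2.15 in CLP. Fancc, another core subunit, had the same directions of genotype with 8.77, 3.18, 2.19 and 9.45 FPKM, and ratios of -1.23 and 1.71. Fancg, which binds FANCA directly, ran the other way in HSC, with 5.34 FPKM in WT and 25.8 in GRK6-/- HSC, and 6.503 and 19.7 in CLP (ratios of 2.08 and 1.46). The level of Fancg was therefore 0.216 times that of Fanca in WT HSC and 5.70 times in GRK6-/- HSC. Fance, the subunit that contacts FANCD2, was 4.54 FPKM in WT HSC and between 11.5 and 22.6 in the other libraries, with ratios of 1.97 in HSC and -0.91 in CLP. Fancl, the ligase, was the highest of the pathway in the mean over libraries and had the smallest ratio of highest to lowest value.

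The substrates of the ligase, Fancd2 and Fanci, had no row in WT HSC. Fancd2 (Entrez Gene 211651, chromosome 6, 113481676 to 113547015, plus strand) had 8.76 FPKM in GRK6-/- HSC, and 5.19 (WT) and 1.53 (GRK6-/-) in CLP, or about 183, 124 and 23.5 fragments. Fanci (Entrez Gene 208836, chromosome 7, 86537224 to 86595150, plus strand) had 1.44, 10.4 and 60.4 FPKM in these libraries, or about 25.1, 209 and 778 fragments. The proteins work as a pair. In GRK6-/- CLP the transcript level of Fanci was 39.5 times that of Fancd2, and in GRK6-/- HSC that of Fancd2 was 6.10 times that of Fanci. Each overlaps the exons of a gene on the other strand. 4931417G12Rik, which overlaps Fancd2 by 257 bp, had 5.81 FPKM in WT HSC, no row in GRK6-/- HSC, and 7.33 and 33.1 FPKM in WT CLP and GRK6-/- CLP. Polg, which overlaps Fanci by 856 bp, had 20.9, 23.7, 43.0 and 8.56 FPKM (HSC of WT and GRK6-/-, then CLP likewise). Without strand, reads of the overlapping parts cannot be told apart.

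The remaining Fanconi genes were near the limit of detection in some libraries. Fancb, a core subunit on chromosome X, had 0.704 (WT) and 6.72 FPKM (GRK6-/-) in HSC, 0.389 FPKM in WT CLP and no row in GRK6-/- CLP. Fancm, the translocase that recruits the core complex, had no row in WT CLP, 0.0433 and 0.130 FPKM in WT HSC and GRK6-/- HSC, and 1.88 in GRK6-/- CLP, the last about 40.8 fragments. Fancf was 2.29 FPKM in GRK6-/- HSC, about 14.7 fragments, and between 0.218 and 0.286 elsewhere, which is 1.1 to 2.1 fragments. A difference of Fancf between the CLP libraries was not detectable at this depth.

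In homologous recombination Rad52 was the gene with the same direction past 2-fold in both populations. Rad52, which anneals single strands (Entrez Gene 19365, chromosome 6, 119852716 to 119872842, plus strand), had 47.7 (WT) and 12.4 FPKM (GRK6-/-) in HSC, and 19.9 (WT) and 0.449 FPKM (GRK6-/-) in CLP, the last about 2.1 fragments. It was lower in the GRK6-/- library in 2 of 2 populations, with log2 ratios of -1.86 and -3.85. In the limma model across all genes, which holds a term for the population, its genotype effect was -2.86 on the log2 scale (SE 0.987, limma adjusted p = 0.999). Wrn, a RecQ helicase, was 2.41 (WT) and 12.2 FPKM (GRK6-/-) in HSC, and 17.9 (WT) and 6.29 FPKM (GRK6-/-) in CLP, with ratios of 1.95 and -1.38. Blm, the other RecQ helicase of the list, had 6.17, 3.24, 2.14 and 16.5 FPKM, higher in GRK6-/- CLP (2.48) and within 2-fold in HSC (-0.76). Thus each of these helicases was highest in a different CLP library.

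Palb2 had the lowest ratio of the pathway in HSC. Palb2, the bridge between BRCA1 and BRCA2, had 12.9 FPKM in WT and 0.830 in GRK6-/- HSC (ratio of -2.93), and 5.96 and 4.68 in WT CLP and GRK6-/- CLP. Brca2, which loads the recombinase, was 3.87 and 3.64 FPKM in HSC, and 5.46 (WT) and 18.5 (GRK6-/-) in CLP (1.59). Brca1 was 4.78 and 7.44 FPKM in HSC, and 43.1 and 21.7 in CLP, so that both CLP libraries lay above both HSC libraries. Its partner Bard1 showed no such order, and the level of Brca1 ranged from 0.666 times that of Bard1 in WT HSC to 12.7 times in WT CLP. Brip1, a helicase bound to BRCA1, had 1.80 and 4.05 FPKM in HSC, and 0.543 (WT) and 10.97 (GRK6-/-) in CLP, the largest ratio of the pathway in CLP (2.96). Rad54l, a motor protein of strand exchange, had 18.3 and 8.71 FPKM in HSC of WT and GRK6-/-, and 3.31 and 27.5 in CLP (2.73 in CLP). Xrcc3, a paralog of the recombinase, was 2.12 FPKM in WT CLP and 17.7 in GRK6-/- CLP (2.59), while Xrcc2 was 4.34 and 3.48. Each of Brca2, Brip1, Rad54l, Xrcc3 and Blm was thus highest in GRK6-/- CLP.

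Recombination genes are used around S phase, so genes of proliferation are given beside them. Of 16 such genes, 4 were higher and 4 lower past 2-fold in GRK6-/- CLP than in WT CLP, and 1 higher and 2 lower in GRK6-/- HSC than in WT HSC. These are 50% in CLP and 18.75% in HSC, beside 50% and 37.4% of all genes. The median log2 ratios of the 16 genes were -0.05 and -0.02. The summed level was 1872 (WT) and 1512 FPKM (GRK6-/-) in HSC, and 2083 (WT) and 2347 FPKM (GRK6-/-) in CLP. In CLP the genes higher past 2-fold were Pcna (222 and 521 FPKM), Mcm7 (135 and 537), Rrm2 (29.0 and 216) and Tyms (12.1 and 41.4). The lower ones were Top2a (478 and 36.5 FPKM), Mcm3 (220 and 101), Cdk1 (58.4 and 20.7) and Ccnb1 (43.3 and 3.24). The list was not split by phase of the cell cycle, so its median and sum do not describe S phase alone. The part of the cell cycle in the repair gene values was not tested.

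Mismatch repair had 0 of 5 genes past 2-fold in HSC, with ratios from -0.83 to -0.09, and 3 in CLP. Of all genes, 37.4% passed in HSC and 50% in CLP, and 5 genes are too few to tell from these shares. The count in HSC depends on the added 1, since Pms2 passed there with a pseudocount of 0.1 (-1.10). Msh6 and Msh3 give the mismatch sensor its choice of lesion, Msh6 for single mismatches and Msh3 for larger loops. Msh6 was the highest of the pathway in the mean over libraries, with 29.99 and 25.4 FPKM in HSC and 10.5 and 14.6 in CLP. Msh3 (Entrez Gene 17686, chromosome 13, 92981836 to 93124958, minus strand) was 5.15 and 3.89 FPKM in HSC, and 1.15 (WT) and 21.7 (GRK6-/-) in CLP, a log2 ratio of 3.40. Pms2, the endonuclease subunit, ran opposite with 4.09 and 1.86 FPKM in HSC, and 32.7 (WT) and 3.90 (GRK6-/-) in CLP (-2.78). Exo1, the exonuclease, was 4.197 and 2.41 FPKM in HSC of WT and GRK6-/-, and 3.28 and 10.55 in CLP (1.43 in CLP). Mlh3 had no row in GRK6-/- HSC and 1 to 2 fragments in the other libraries, so its differences were not detectable.

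In nucleotide excision repair 5 of 10 genes passed 2-fold for genotype in HSC and 4 of 10 in CLP, beside 37.4% and 50% of all genes. Xpc, the sensor of the whole genome, had 36.3 and 27.6 FPKM in HSC of WT and GRK6-/-, and 67.5 and 51.8 in CLP, and Ddb1, the adaptor of a ubiquitin ligase, between 34.9 and 67.3. Both stayed within 2-fold in the comparisons of genotype. Ddb2, which binds DDB1 at ultraviolet lesions, was 23.1 (WT) and 5.76 FPKM (GRK6-/-) in HSC, and 12.1 (WT) and 17.4 FPKM (GRK6-/-) in CLP, with a ratio of -1.83 in HSC. Ddb1 thus had 2.29 times the level of Ddb2 in WT HSC and 11.7 times in GRK6-/- HSC, with 2.88 and 2.53 times in CLP. Xpa, which verifies the lesion (Entrez Gene 22590, chromosome 4, 46188092 to 46209183, minus strand), had 12.1, 16.1 and 21.5 FPKM in WT HSC, GRK6-/- HSC and GRK6-/- CLP. In WT CLP it had 0.279 FPKM, about 1.5 fragments, and its ratio of 4.14 in CLP was the largest of all 47 genes.

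The nucleases and helicases of this pathway differed in several ways. Ercc1 and Ercc4 form the nuclease that cuts on the 5′ side. Ercc1 had 30.8 and 51.4 FPKM in HSC, and 41.0 (WT) and 10.1 (GRK6-/-) in CLP (-1.92), while Ercc4 had 8.42, 2.63, 3.44 and 7.78 FPKM (-1.38 in HSC). The level of Ercc1 was 3.66 (WT) and 19.6 times (GRK6-/-) that of Ercc4 in HSC, and 11.9 and 1.29 times in CLP. Ercc5, the nuclease of the 3′ side, was 4.72 and 2.25 FPKM in HSC, and 18.5 and 7.999 in WT CLP and GRK6-/- CLP (-1.12). Ercc3, a helicase of the transcription factor TFIIH, was higher in GRK6-/- in 2 of 2 populations, with 7.64 (WT) and 22.1 FPKM (GRK6-/-) in HSC, and 9.61 (WT) and 23.1 FPKM (GRK6-/-) in CLP (1.42 and 1.18). Ercc2, the other helicase of TFIIH, was at or under 1.95 FPKM in the 4 libraries, and Ercc6, of repair coupled to transcription, likewise at or under 1.91. The ratio of Ercc2 in HSC (-1.07) rested on about 20.2 and 5.5 fragments, and that of Ercc6 was 1.02.

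Base excision repair had the highest median FPKM of the 5 pathways in each library. The highest single repair gene in WT CLP was Xpc, of nucleotide excision repair. For genotype, 7 of 10 base excision genes passed 2-fold in CLP, beside 50% of all genes, and 6 of 11 in HSC, beside 37.4%. Among the glycosylases, Ung, which removes uracil (Entrez Gene 22256, chromosome 5, 114580444 to 114589330, plus strand), had 18.1 and 16.6 FPKM in HSC, and 0.125 (WT) and 8.28 (GRK6-/-) in CLP (3.04). The value in WT CLP is about 1.2 fragments. Ogg1, which removes oxidized guanine, was 3.85 and 1.89 FPKM in HSC, and 3.92 and 8.98 in CLP (1.02). Mutyh, which removes adenine paired with oxidized guanine, ran the other way, with 5.39 (WT) and 12.2 FPKM (GRK6-/-) in HSC, and 2.07 (WT) and 0.465 FPKM (GRK6-/-) in CLP (1.05 and -1.07). Neil1, a glycosylase for oxidized pyrimidines, had 6.27 FPKM in WT and 0.501 in GRK6-/- HSC (about 27.2 and 2.8 fragments) and no row in either CLP library. Mpg, which removes alkylated bases, lay between 6.24 and 19.4 FPKM and passed 2-fold in neither comparison of genotype.

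Of the later steps, Apex1, the endonuclease that opens the strand, had 106.6 and 86.01 FPKM in HSC of WT and GRK6-/-, and 48.3 and 125 in CLP (1.35 in CLP). Of its 1422 exon bases, 877 overlap exons of a gene on the other strand, so its values may include reads of that gene. The same holds for 1340 of 3752 exon bases of Mpg and 652 of 2736 of Ddb2. It also holds for 1184 of 7706 of Rad54l, at least 1025 of 4170 of Ercc2 and 652 of 8491 of Fanca. In all, 15 of the 47 genes have such an overlap of at least 100 bp. Pms2 shares 410 of 8442 exon bases with a gene on its own strand. Polb, the gap-filling polymerase (Entrez Gene 18970, chromosome 8, 23738591 to 23763913, minus strand), was 42.9 (WT) and 16.8 FPKM (GRK6-/-) in HSC, and 13.4 (WT) and 59.1 FPKM (GRK6-/-) in CLP (-1.30 and 2.06). Xrcc1, the scaffold, was 113 FPKM in WT and 20.9 in GRK6-/- HSC (-2.38, the lowest ratio of the pathway in HSC), and 41.7 and 37.2 in CLP. Lig3, the ligase bound to XRCC1, had 3.64 and 3.28 FPKM in HSC, no row in WT CLP and 3.03 FPKM in GRK6-/- CLP. Rffl, which overlaps Lig3 by 1826 bp on the other strand, had 13.8 FPKM in WT CLP and between 10.8 and 31.8 in the other libraries.

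The break sensors Parp1 and Parp2 were in opposite order. Parp1 (Entrez Gene 11545, chromosome 1, 182499106 to 182531385, plus strand) had 25.998 FPKM in WT and 123 in GRK6-/- HSC (2.21), and 59.9 and 65.4 in CLP (0.12). Parp2 (Entrez Gene 11546, chromosome 14, 51427621 to 51440978, plus strand) had 194 and 79.4 FPKM in HSC (-1.28), and 26.4 and 103 in CLP (1.93). Parp2 was therefore 7.47 times as high as Parp1 in WT HSC and 0.643 times in GRK6-/- HSC, while in CLP the values were 0.441 and 1.58 times. These values correspond to between about 205.5 and 1796.6 fragments each. Fragments amplified by PCR from 13 to 15 cells are not independent molecules, so all fragment numbers given here speak to counting error only.

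Several of the largest ratios rested on a library in which the gene was close to absent. An estimate of 3 fragments or fewer, a missing row included, was found for 5 (WT) and 2 repair genes (GRK6-/-) in HSC, and for 7 and 6 in CLP. A further condition, 30 fragments or more in another library, was met by Fancb, Fancd2, Fanci, Fancm, Rad52, Xpa, Ung, Mutyh and Lig3, or 9 of 47 genes (19.1%). Among all 12250 genes with an annotated length 21.6% met both conditions, so this was about as frequent in the repair genes as elsewhere.

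**Figure D4:**
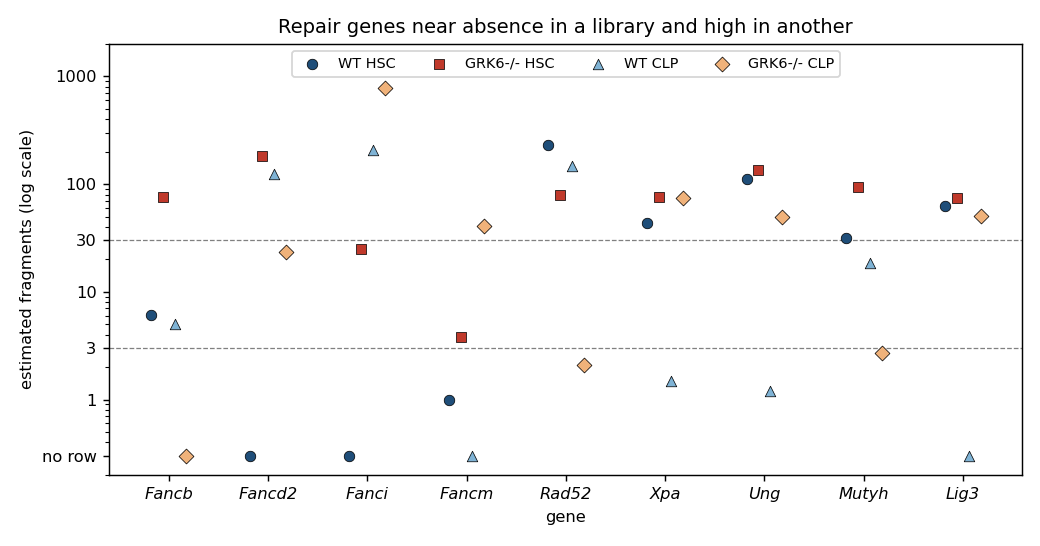
Estimated fragments (vertical, log scale; genes without a row at the bottom) of the 9 repair genes with 3 fragments or fewer in a library and 30 or more in another (dashed lines), 1 point per library. The low point lies in WT HSC for Fancd2 and Fanci, in WT CLP for Xpa, Ung and Lig3, in both WT libraries for Fancm and in GRK6-/- CLP for Fancb, Rad52 and Mutyh.

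Other repair genes were set beside the 47. Of 38 partner genes of the same pathways, 36 had a value in HSC, and 7 of them passed 2-fold upward and 7 downward in GRK6-/-. These are 38.9%, beside 37.4% of all genes. In CLP 32 had a value, with 11 upward and 7 downward, or 56.25%, beside 50% of all genes. Lig1, the replicative ligase of long-patch repair, was higher in GRK6-/- in both populations, with 57.5 and 137.6 FPKM in HSC and 12.9 and 117.8 in CLP. Of the genes that the deposited annotation assigns to DNA repair other than the 47, 208 had a value in HSC and 42.3% passed 2-fold, 48 higher and 40 lower. In CLP 203 had a value and 48.3% passed, 53 higher and 45 lower in GRK6-/- CLP, with a median log2 ratio of 0.25. The excess of higher over lower genes in CLP was thus smaller in this wider set (53 to 45) than among the 47 genes (20 to 7), and the difference was not tested.

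A genotype effect common to both populations was fitted with limma over all genes. At the threshold of 0.05, 0 of 11230 genes passed on the adjusted p-value and 500 (4.45%) on the unadjusted one, and of the 46 repair genes fitted 0 and 1 passed, the latter being Rad52. For the population effect 1 gene, Ly6d (0.0089%), passed the adjusted threshold and 608 (5.41%) the unadjusted one, and of the repair genes 0 and 2. The lower p of these was that of Fanci, 4.08 higher in CLP on the log2 scale (SE 0.947, limma adjusted p = 0.587). It was higher in CLP in 2 of 2 genotypes. The 1 residual degree of freedom is the difference of the genotype effect between HSC and CLP, and not a spread between mice. The SE also draws on the residuals of all genes, with 7.43 prior degrees of freedom. This fit therefore leaves effects of the size seen here undecided.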

How the data were processed

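RNA-seq of HSC and CLP from both genotypes was used, with 1 library per group. Single cells were lysed, reverse transcribed from the poly(A) tail and amplified with PCR in rounds of 20 and 10 cycles. The authors aligned paired-end reads to mm9 with the Tuxedo suite (TopHat 1.4.0 in the submitters' processing notes, other versions not given in the sources used here) and deposited FPKM values per gene, without counts or confidence bounds. Intervals for counting error could therefore not be given. Whether counting used strand is not stated.

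Rows of the same symbol were summed, and 478 genes and joint names of rows with several genes were left out. None of the 47 genes was in a joint row, and the loci of 47 of 47 overlapped their gene in the mm9 annotation (GENCODE vM1). Ratios are log2 of (FPKM + 1) of GRK6-/- over WT, or of CLP over HSC. The added 1 understates changes of low genes, and genes were counted from 2-fold. No test was made between single libraries. limma 3.58.1 on log2(FPKM + 1), for genes of at least 1 FPKM in a library, tested genotype and population effects over the 4 libraries. Fragments were estimated from FPKM, the longest transcript and the steps of values under 0.3 FPKM in transcripts of at least 1500 bp. Between 74.4% and 82.4% of these values lay within 10% of 1, 2 or 3 steps, so these numbers are estimates. The depth was itself chosen by nearness to such steps, so this share does not check it. The scripts were tested on simulated data. A neighbouring gene of 1 member is not reported here. Named with all values were genes past 2-fold in both populations, the highest and the most changed of each pathway, and those without a row; other members were added after their values were seen, as were the motifs and the genes outside the list. The members and lists were chosen with earlier results of these data known. Python 3.11.15, pandas 2.3.3, R 4.3.3 and matplotlib 3.10.9 were used. Alternatives were the pseudocount, filters on FPKM, scaling to equal medians, the highest row per symbol, a 4-fold threshold, joint rows, and gene subsets added after seeing the data.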

Additional observations from a re-analysis of the deposited data

Results flagged for a closer look

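Of the 46 repair genes with a value in both comparisons of genotype, 7 passed 2-fold in opposite directions in HSC and CLP. The log2 ratio of GRK6-/- over WT in CLP minus that in HSC was 4.365 for Fanca, 2.937 for Fancc, 3.207 for Parp2 and 3.362 for Polb, which were lower in GRK6-/- HSC and higher in GRK6-/- CLP. It was -4.576 for Fancd2, -3.328 for Wrn and -2.117 for Mutyh, which went the other way. The value of Fancd2 depends on the pseudocount, since the gene had no row in WT HSC, and that of Mutyh rests on about 2.7 fragments in GRK6-/- CLP. With 1 library per group these differences between the populations were not tested. Over all 10398 genes, 5.69% were lower in HSC and higher in CLP and 5.07% the reverse.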

How the results depend on the processing

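By replicate number, no paired analysis was possible because each group holds 1 library. The limma fit of genotype is matched by population and has 1 residual degree of freedom, so no library could be left out. Under a 4-fold threshold 8 repair genes passed for genotype in HSC, 13 in CLP, 12 for CLP against HSC in WT and 9 in GRK6-/-. With at least 1 FPKM in both libraries 15 passed for genotype in HSC, all from the 37 genes left. Counts for the other alternatives on FPKM values stayed within 1.5 times, except that over genes without an opposite-strand exon overlap, which leaves fewer genes, 17 passed for genotype in CLP and 13 for CLP against HSC in GRK6-/-.

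Medians kept their sign and moved by over 0.1 (log2) as follows. A pseudocount of 0.1 gave 0.68 for genotype in CLP, and -0.75 and 0.68 for CLP against HSC in WT and GRK6-/-. At least 1 FPKM in a library gave 0.71, -0.86 and 0.66 for these, and in both libraries 0.67, -0.73 and 0.78. Genes with a row in every library gave -0.36 for genotype in HSC, and -0.79 and 0.66 for CLP against HSC. Genes without an overlap gave -0.10 and 0.12 for genotype in HSC and CLP, and -0.47 and 0.38 for CLP against HSC. With library medians set equal, limma called 1 gene (Snora70) for genotype and 5 for population (Blnk, Cox6a2, Hist1h2ae, Ly6d and Vpreb3), and with a pseudocount of 0.1 or no filter 0 for population, where 565 and 614 genes had an unadjusted p under 0.05. The repair genes had 0 adjusted calls in each. Of 379 single-gene values under alternatives, 0 changed sign, 18 stayed past 2-fold but did not reach the 4-fold threshold, and 3 passed 2-fold with the pseudocount of 0.1 (Brip1 and Pms2 in HSC, Fancb in CLP). The causes were not tested. Values of a few fragments limit the genes near absence.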
